A study of Mus musculus with 6 samples.

Results

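The transcripts described here encode 10 transcription factors that steer blood stem cells toward the myeloid or the lymphoid lineages: Cebpa, Cebpb, Spi1, Gfi1, Irf8, Ikzf1, Satb1, Bcl11a, Tcf3 and Mef2c. They were chosen by gene symbol, not by a measured value, but with earlier results of these data known. All 10 are among the 17500 genes of the series count table and among the 15610 genes that passed the filter on low counts. The libraries hold long-term hematopoietic stem cells (LT-HSCs), the bone marrow cells with the most durable capacity to rebuild blood. The donors were WT male C57/Bl6 mice aged 22 to 24 months, with no treatment named. Every library shares the gate Lin-, Sca1+, cKit+, CD48- and CD150+, and within it CD61High is the top 10% and CD61Low the bottom 10% of LT-HSCs by CD61, the integrin beta 3 chain, with 5000 cells sorted for each. The 6 libraries form 3 pairs, 1 CD61High and 1 CD61Low library from each of 3 mice per the titles, although the protocol speaks of pools.

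Stem cells carry low levels of lineage transcription factors before they commit, a state called priming, and the balance between these factors biases the cell's later choice. C/EBP-alpha and PU.1, the products of Cebpa and Spi1, open the granulocyte and monocyte programme, with C/EBP-beta and Irf8 acting later or under stress. Gfi1 acts in neutrophil differentiation and also in stem cells. Ikaros (Ikzf1), the chromatin organizer Satb1, Bcl11a and the E protein E2A (Tcf3) prepare the lymphoid programme, and Mef2c favours lymphoid over myeloid fate. Aged stem cells are known for a shift away from lymphoid output.

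RefSeq start-site windows (GRCm38.p6) matched 9 of the 10 genes, with 18 start sites in all. Windows of 250 bases directly before the start are printed for the 4 genes that differed in the same direction in all 3 mice and whose window holds no GENCODE exon base: Cebpa at chr7:35119043-35119292, Cebpb at chr2:167688665-167688914, Irf8 at chr8:120736108-120736357 and Mef2c at chr13:83503784-83504033, all on the plus strand. Each runs 5′ to 3′, and capitals mark any match, on either strand, to one of the motifs listed after them.
Cebpa: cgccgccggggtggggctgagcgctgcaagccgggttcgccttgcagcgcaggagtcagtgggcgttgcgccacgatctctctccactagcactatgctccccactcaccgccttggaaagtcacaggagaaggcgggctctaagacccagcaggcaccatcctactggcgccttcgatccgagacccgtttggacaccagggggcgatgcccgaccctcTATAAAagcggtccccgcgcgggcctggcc
Cebpb: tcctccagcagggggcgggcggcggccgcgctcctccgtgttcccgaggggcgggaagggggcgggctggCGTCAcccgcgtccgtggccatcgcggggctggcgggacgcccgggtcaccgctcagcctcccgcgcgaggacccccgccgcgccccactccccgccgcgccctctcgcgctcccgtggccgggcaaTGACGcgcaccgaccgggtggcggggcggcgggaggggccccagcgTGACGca
Irf8: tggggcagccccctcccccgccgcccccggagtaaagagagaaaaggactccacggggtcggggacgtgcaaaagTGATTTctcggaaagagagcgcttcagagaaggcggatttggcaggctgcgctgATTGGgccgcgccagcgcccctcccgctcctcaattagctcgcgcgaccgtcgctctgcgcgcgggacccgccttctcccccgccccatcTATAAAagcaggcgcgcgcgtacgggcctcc
Mef2c: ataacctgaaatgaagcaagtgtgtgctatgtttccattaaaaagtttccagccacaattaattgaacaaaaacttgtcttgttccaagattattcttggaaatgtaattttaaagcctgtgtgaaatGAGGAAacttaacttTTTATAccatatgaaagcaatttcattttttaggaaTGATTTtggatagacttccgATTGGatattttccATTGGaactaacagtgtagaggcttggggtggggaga

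The motifs searched were TTGCNNCAA for C/EBP, GAGGAA for PU.1, GGAA and GAAA with 2 bases between them for joint binding of PU.1 and an IRF, CANCTG for E proteins, TGANTCA for AP-1, TGACG for CREB and ATF, CTA and TAG with 4 bases between them for MEF2, AAATCA for GFI1, CCAAT and TATAAA. They occur in 1.74%, 23.3%, 2.30%, 44.8%, 6.75%, 17.8%, 3.20%, 12.4%, 33.9% and 12.4%, in that order, of the 32841 windows of this length in the table. TATAAA starts at position -30 of Cebpa and -31 of Irf8, counted from the start site. Cebpb has no such match but holds TGACG or its complement at -180, -53 and -7. Irf8 also holds CCAAT on the minus strand at -121 and AAATCA on the minus strand at -175. Mef2c holds GAGGAA at -122, TATAAA on the minus strand at -107, AAATCA on the minus strand at -71 and CCAAT on the minus strand at -51 and -37. No match in these 4 windows overlaps another. The Cebpb window is 81.6% G and C with 41 CpG, against 66.4% and 22 for Cebpa, 67.2% and 29 for Irf8 and 33.6% and 1 for Mef2c, with a median of 52.4% over all windows. Other start sites of the same gene differ too: the other Irf8 window is 54.0% G and C, and the other Mef2c windows are 44.8% and 49.6%, the first of them with TATAAA at -22. The match letters are a description, and nothing about binding was measured.

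Total counts on genes ran from 21354130 to 26398090 per library. The 11 HSC markers had counts in all 6 libraries and made up 0.147% to 0.223% of the libraries of mouse 2 and 0.468% to 0.673% of the others. Of these, 5 were lower in CD61High in 3 of 3 mice, against 24.7% of all genes tested. In edgeR with the mouse as a block 2 were called as lower, Procr and Ly6a, named after their values were seen. That fit called 0.256% of all genes. Also present were transcripts of mature cells that the gate was set to exclude. The 18 neutrophil markers, such as S100a8 and Ngp, made up 0.0384% to 7.41% of a CD61High library and 0.196% to 12.0% of a CD61Low library, highest in mouse 2 and lowest in mouse 3, and were higher in CD61Low of each mouse. These markers move with the gates and the mice, and results are also given without mouse 2. That does not remove the marker difference between gates. The neutrophil share was 4.0, 1.62 and 5.12 times as high in CD61Low as in CD61High in mice 1, 2 and 3. Itgb3 mRNA, which encodes CD61, did not follow the surface gate: it was lower in CD61High of mice 1 and 3, by -0.51 and -0.57 on the log2 scale, and higher in mouse 2, by 0.12. Its log2 fold change was -0.41 (SE 0.39, adjusted p = 0.926, edgeR).

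The question of the comparison is which lineage factors differ between LT-HSCs with much and with little surface CD61. Gfi1, Cebpb, Irf8, Cebpa and Satb1 were lower in CD61High in 3 of 3 mice, with log2 fold changes of -1.28 to -1.09 in edgeR's quasi-likelihood test. Mef2c was higher in CD61High in 3 of 3 mice, and Spi1, Ikzf1, Bcl11a and Tcf3 had no common direction with TMM factors. Other scalings left the first 6 as they were, but put Ikzf1 lower in all 3 mice with RLE or upper-quartile factors and Tcf3 higher in all 3 with upper-quartile factors or library sizes alone. Of all genes tested, 24.7% were lower and 20.6% higher in CD61High in all 3 mice, so 5 of 10 and 1 of 10 stand against those shares. No member passed at an adjusted p under 0.05, where the share over all genes was 0%. Gfi1 alone passed at an unadjusted p under 0.05, against 6.55% of genes.

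For Irf8, Cebpa, Satb1 and Spi1 the spread between mice is larger than the difference between gates, and a fit with the mouse as a block takes such a spread out. In that fit 5 members were lower (12.8% of genes) and 1 was higher (8.01% of genes) at an unadjusted p under 0.05. At an adjusted p under 0.05 the blocked fit still called 0 of the 10, against 0.256% of all genes. DESeq2 called 0 of 10 without the block (1.62% of genes tested), as did limma voom (0%), and each had 1 of 10 at an unadjusted p under 0.05, where 1442 and 1148 of all genes lay. With the block DESeq2 called 5 of 10, all lower (11.1% of genes tested), and limma voom called Cebpb, Gfi1 and Irf8 (2.13%). The median log2 fold change of the 10 genes in edgeR was -0.83 without the block, against -0.05 over all genes. With the block it was -0.79, against -0.02. In bulk libraries, fewer cells that hold a transcript and less of it per cell cannot be told apart.

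**Figure D1:**
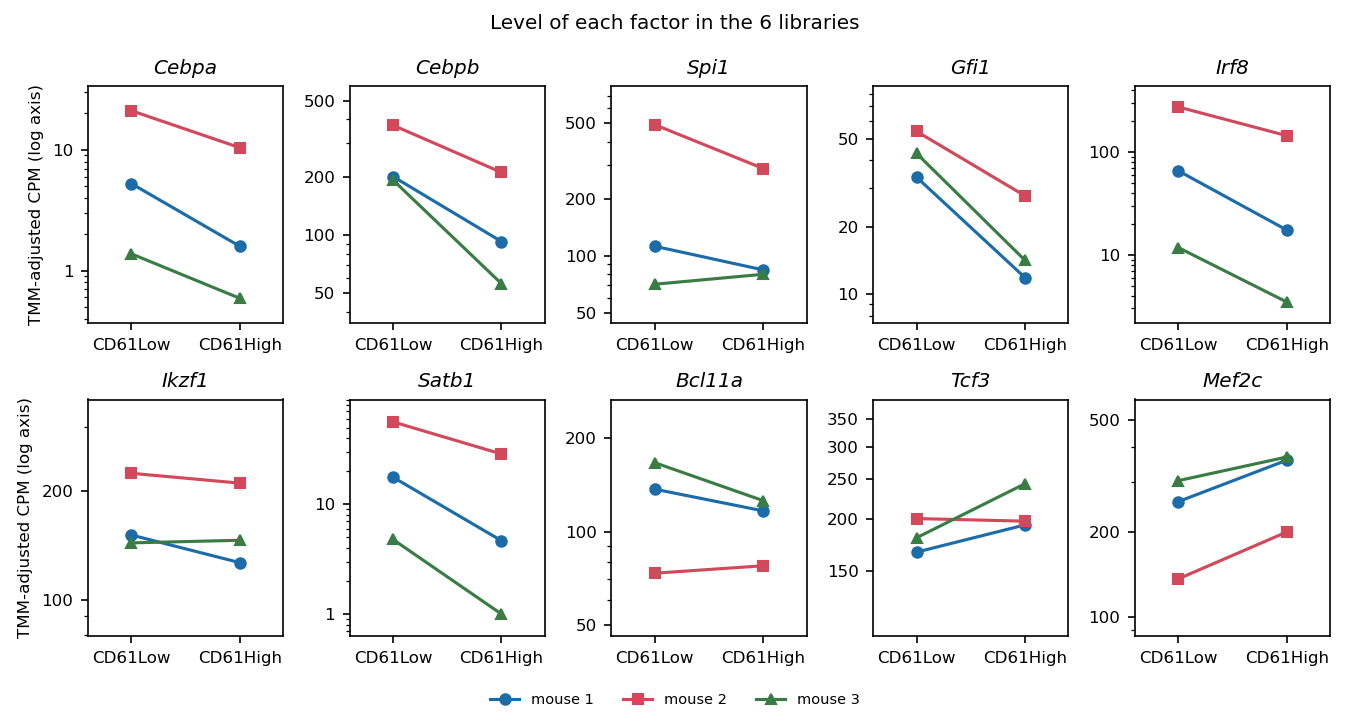
TMM-adjusted CPM on a log axis for each of the 10 factors in CD61Low and CD61High, with a line joining the libraries of each mouse. All 3 lines go down from CD61Low to CD61High for Cebpa, Cebpb, Gfi1, Irf8 and Satb1 and climb for Mef2c.

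Gfi1, a zinc finger repressor that restrains stem cell division and directs neutrophil differentiation, had the only levels that did not overlap between gates. Levels in CPM, read counts relative to library size after edgeR's TMM scaling, were 11.9, 27.7 and 14.2 in CD61High of mice 1, 2 and 3 and 33.6, 54.1 and 43.0 in CD61Low. Each CD61Low library stood above each CD61High library, which 5.71% of all genes did. Mean Gfi1 was 17.9 ± 8.56 CPM for CD61High and 43.6 ± 10.2 CPM for CD61Low (SD, n = 3). The log2 fold change was -1.28 (SE 0.38, adjusted p = 0.676) without the block and -1.35 (SE 0.19, adjusted p = 0.0512) with it in edgeR. Relative log expression (RLE) factors with the block put Gfi1 just past the threshold, at an adjusted p of 0.0497, where 0.564% of genes were called and Gfi1 was the only one of the 10. Gfi1 lies on chromosome 5 at 107716657 to 107726036 (GRCm38), and 3.17% of its exon sequence overlaps A430072P03Rik on the other strand.

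Cebpb encodes C/EBP-beta, the C/EBP factor of emergency granulopoiesis and inflammatory responses. It stood at 92.7, 212 and 56.0 CPM in CD61High of mice 1, 2 and 3 and at 202, 372 and 193 CPM in CD61Low. CD61Low was the higher library of every mouse, but CD61High of mouse 2 exceeded CD61Low of mice 1 and 3. The log2 fold change was -1.09 (SE 0.54, adjusted p = 0.764), and with the block -1.24 (SE 0.20, adjusted p = 0.0618). The difference was widest in mouse 3, at -1.79 on the log2 scale, against -1.12 in mouse 1 and -0.81 in mouse 2. Of Cebpb exon sequence (chromosome 2, 167688915 to 167690418), 20.7% overlaps Tmem189, and reads there were not assigned to either gene.

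Irf8 (chromosome 8, 120736358 to 120756694), which drives monocytes and dendritic cells and holds back neutrophils, varied most between libraries, 79.5-fold from the lowest to the highest. CD61High of mice 1, 2 and 3 had 17.5, 145 and 3.47 CPM, and CD61Low had 65.9, 276 and 11.8 CPM. Mouse 2 was highest and mouse 3 lowest in both gates, so the groups overlap widely although each mouse has the lower value in CD61High. The log2 difference was -1.91, -0.93 and -1.74 in mice 1, 2 and 3. Without the block the fold change of -1.09 had an SE of 1.54 (adjusted p = 0.940), while with it the estimate was -1.52 (SE 0.22, adjusted p = 0.0512).

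Cebpa (chromosome 7, 35119293 to 35121928), the master factor of granulocyte and monocyte commitment, was among the scarcest of the 10. It had 37, 239 and 16 counts in CD61High of mice 1, 2 and 3 and 144, 426 and 37 in CD61Low, or 1.59, 10.4 and 0.591 CPM against 5.25, 21.1 and 1.38 CPM. Each mouse was lower in CD61High, with log2 differences of -1.67, -1.01 and -1.12. In mouse 3 the exact 95% Poisson intervals, which cover counting error only, run from 9.15 to 26.0 and from 26.1 to 51.0 counts. The log2 fold change was -1.14 (SE 1.33, adjusted p = 0.939), and -1.31 (SE 0.28, adjusted p = 0.0808) with the block.

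Spi1 (chromosome 2, 91082390 to 91115756) encodes PU.1, whose dose helps set the choice between myeloid and B lineage fates. Unlike the other myeloid factors it had no common direction. CD61High of mice 1, 2 and 3 had 84.3, 289 and 79.9 CPM and CD61Low 112, 492 and 70.8 CPM. Spi1 was lower in CD61High of mice 1 and 2 and higher in mouse 3, where the log2 difference was 0.17. The log2 fold change was -0.57 (SE 0.88, adjusted p = 0.940), and -0.34 (SE 0.20, adjusted p = 0.368) with the block. Without mouse 2 the blocked estimate was -0.14 (SE 0.18, adjusted p = 0.690).

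Among the lymphoid factors, Satb1 (chromosome 17, 51736187 to 51833290), which organizes chromatin loops in early lymphoid progenitors and T cells, differed most between gates within a mouse. It had 4.65, 28.7 and 0.997 CPM in CD61High of mice 1, 2 and 3 and 17.6, 56.3 and 4.77 CPM in CD61Low. Each mouse had less in CD61High, by -1.90, -0.97 and -2.17 on the log2 scale, while mouse 2 stood above the other mice in both gates. The log2 fold change was -1.20 (SE 1.34, adjusted p = 0.938), and with the block -1.66 (SE 0.29, adjusted p = 0.0648). Counts in mouse 3 were low, at 27 in CD61High (95% Poisson interval 17.8 to 39.3) and 128 in CD61Low (107 to 152).

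Mef2c (chromosome 13, 83504034 to 83667080), a MADS-box factor that supports lymphoid development and restrains myeloid fate, went the other way. Its levels were 360, 200.0 and 369 CPM in CD61High of mice 1, 2 and 3 and 256, 136 and 304 CPM in CD61Low. CD61High was the higher library in each mouse, and mouse 2 had the lowest levels in both gates. The log2 differences were 0.49, 0.55 and 0.28. The fold change was 0.41 (SE 0.38, adjusted p = 0.918) without the block and 0.44 (SE 0.13, adjusted p = 0.137) with it.

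Tcf3, Ikzf1 and Bcl11a had the smallest differences between gates of the 10. Tcf3 (chromosome 10, 80409514 to 80433647), which encodes E proteins, had 194, 198 and 244 CPM in CD61High of mice 1, 2 and 3 and 167, 201 and 180 CPM in CD61Low. It was near level in mouse 2 and higher in CD61High of mice 1 and 3, and the log2 fold change was 0.21 (SE 0.16, adjusted p = 0.880). Ikzf1 (chromosome 11, 11685003 to 11772926), which encodes the zinc finger protein Ikaros, had 127, 210 and 146 CPM in CD61High and 151, 224 and 144 CPM in CD61Low. It was slightly lower in CD61High of mice 1 and 2 and level in mouse 3, and its log2 fold change was -0.10 (SE 0.27, adjusted p = 0.948). Bcl11a (chromosome 11, 24078056 to 24174123), a repressor needed for B cells and known for silencing fetal globin, had 117, 77.5 and 126 CPM in CD61High and 137, 73.4 and 167 CPM in CD61Low. It was lower in CD61High of mice 1 and 3 and slightly higher in that of mouse 2, with a log2 fold change of -0.24 (SE 0.35, adjusted p = 0.940). With the block and all mice the values were 0.21 for Tcf3, -0.11 for Ikzf1 and -0.19 for Bcl11a. With the block and without mouse 2 they were 0.31 (SE 0.12, adjusted p = 0.184) for Tcf3, -0.13 (SE 0.13, adjusted p = 0.585) for Ikzf1 and -0.34 (SE 0.11, adjusted p = 0.141) for Bcl11a, beside 0.37 (SE 0.11, adjusted p = 0.115) for Mef2c.

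**Figure D2:**
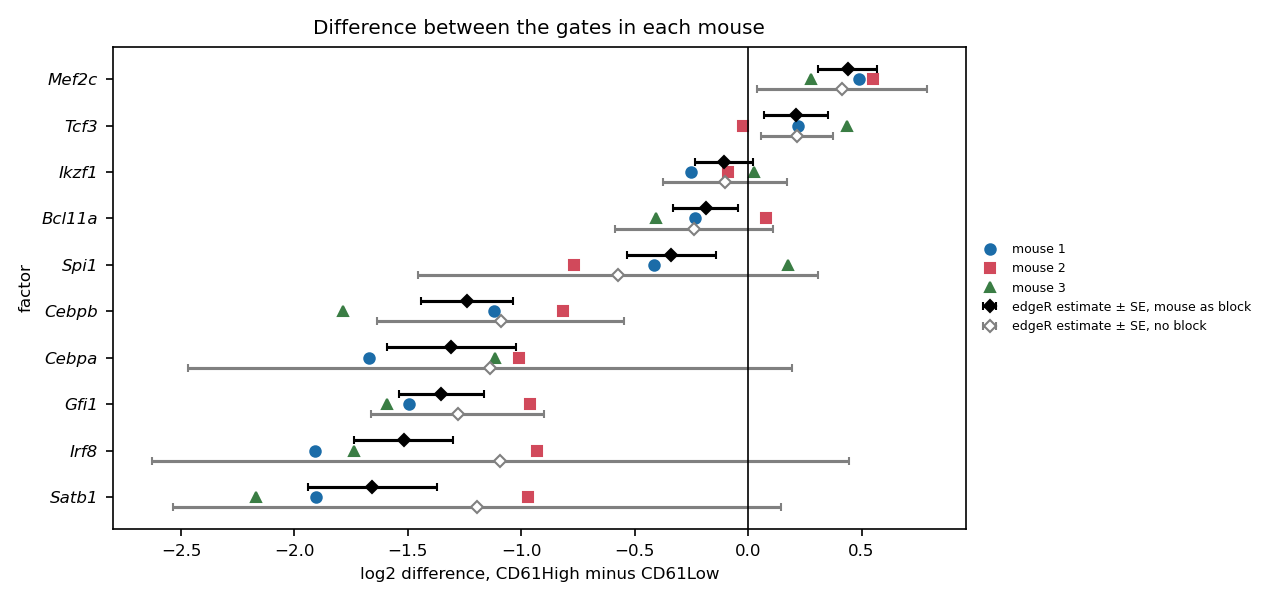
Log2 difference, CD61High minus CD61Low, for each factor in each mouse (coloured symbols), with the edgeR estimate ± SE with the mouse as a block (filled diamonds) and without it (open diamonds). For Satb1, Irf8, Gfi1, Cebpa and Cebpb all 3 mice lie left of 0, with mouse 2 nearest to 0, and the SE shrinks with the block.

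Leaving out mouse 2 with the block brought Gfi1, Cebpb, Irf8 and Satb1 past the threshold over all genes, where 4.77% of genes were called. The estimates were then -1.57 (SE 0.17, adjusted p = 0.0209) for Gfi1, -1.47 (SE 0.18, adjusted p = 0.0237) for Cebpb, -1.86 (SE 0.18, adjusted p = 0.0196) for Irf8 and -2.09 (SE 0.29, adjusted p = 0.0309) for Satb1. Cebpa stayed outside it at -1.51 (SE 0.44, adjusted p = 0.108). The remaining mice, 1 and 3, had larger neutrophil marker differences between the gates than mouse 2. Leaving out mouse 1 or mouse 3 with the block left 0 of the 10 called, with adjusted p from 0.161 upward for these 5 genes. Over all genes these fits called 0 of 15967 without mouse 1 and 7 of 16106 without mouse 3.

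The levels of the factors fall far apart. Per kilobase of annotated exon, Cebpb ranged from 37.2 to 248 CPM per kb over the 6 libraries, Spi1 from 26.3 to 183, Tcf3 from 41.2 to 60.4, Ikzf1 from 22.0 to 38.8 and Mef2c from 8.68 to 23.5. Irf8 ranged from 0.492 to 39.1, Gfi1 from 3.73 to 17.0, Bcl11a from 5.57 to 12.7, Cebpa from 0.224 to 8.0 and Satb1 from 0.0524 to 2.96 CPM per kb. In this order by mean, Tcf3 and Ikzf1 are the only neighbours whose ranges do not overlap. The exon length joins all annotated transcripts, so long genes such as Satb1 and Mef2c read lower than a single transcript would.

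The factors differed in how far they varied between mice. Over the CD61Low libraries the highest level exceeded the lowest 1.21-fold for Tcf3, 1.56-fold for Ikzf1, 1.61-fold for Gfi1, 1.93-fold for Cebpb, 2.23-fold for Mef2c and 2.27-fold for Bcl11a. It did so 23.5-fold for Irf8, 15.3-fold for Cebpa, 11.8-fold for Satb1 and 6.95-fold for Spi1. Over the CD61High libraries the spread was 2.33-fold for Gfi1 and 3.79-fold for Cebpb, and 41.8-fold for Irf8, 28.8-fold for Satb1 and 17.6-fold for Cebpa. Irf8, Cebpa and Satb1 thus varied most between mice in both gates. The neutrophil marker share of the CD61Low libraries varied 61.2-fold, that of 14 monocyte, macrophage and dendritic cell markers 36.6-fold, that of 15 B lineage markers 78.8-fold and that of 12 T and NK cell markers 2.71-fold. The T and NK share rests mostly on Klrb1c and Nkg7 and does not follow the T cell genes. In CD61Low of mice 1, 2 and 3, Klrb1c had 2143, 939 and 2445 counts and Nkg7 1106, 5542 and 177. Cd3d had 96, 245 and 8 counts there.

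**Figure D3:**
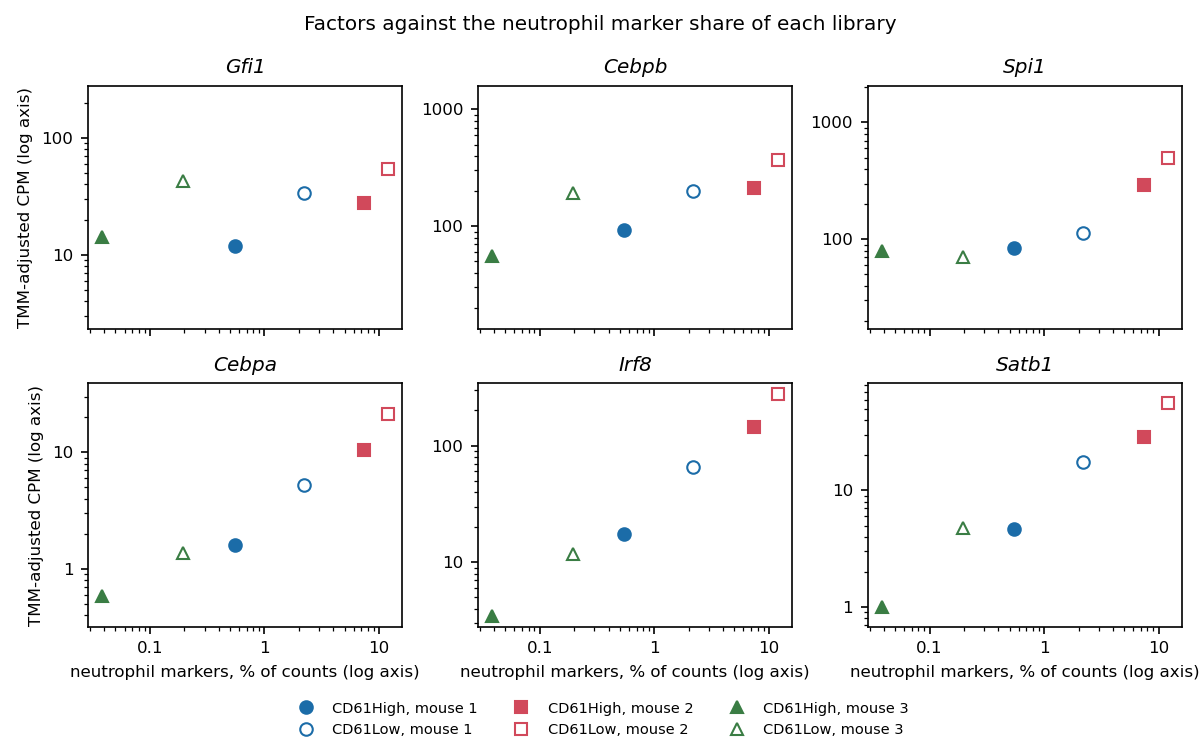
TMM-adjusted CPM of 6 factors against the share of counts on 18 neutrophil markers, both on log axes, with 1 point per library (filled for CD61High, open for CD61Low). Cebpa and Irf8 climb with the share from left to right across the 6 libraries, while Gfi1 is highest in the CD61Low libraries at shares from 0.196% to 12.0%.

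Mature cells express several of these factors, so the markers are set beside them. The 6 libraries, ordered by Cebpa or by Irf8, had the same order as by neutrophil share: CD61Low and CD61High of mouse 2, then of mouse 1, then of mouse 3. The neutrophil shares in that order were 12.0%, 7.41%, 2.20%, 0.55%, 0.196% and 0.0384%. The order was not particular to neutrophil markers. The shares of the monocyte, macrophage and dendritic cell, the B lineage and the T and NK cell markers had it too. The erythroid share had it except in mouse 3, with 0.328% in CD61High and 0.311% in CD61Low. Satb1 followed this order except that CD61Low of mouse 3 (4.77 CPM) stood slightly above CD61High of mouse 1 (4.65 CPM). Gfi1 did not follow it, since CD61Low of mouse 3 with 0.196% neutrophil markers had 43.0 CPM and CD61High of mouse 2 with 7.41% had 27.7 CPM. Cebpb had 193 CPM in CD61Low of mouse 3 and 202 CPM in that of mouse 1, at shares of 0.196% and 2.20%.

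All 18 neutrophil markers, 10 of the 13 tested monocyte, macrophage and dendritic cell markers, 10 of the 14 tested B lineage markers, 6 of the 11 tested T and NK cell markers and 10 of the 12 erythroid markers were lower in CD61High in 3 of 3 mice, against 24.7% of all genes. The monocyte group made up 0.00239% to 0.132% of a CD61High library and 0.00575% to 0.21% of a CD61Low one. B lineage markers took 0.00601% to 0.486% and 0.0080% to 0.63%, T and NK cell markers 0.00896% to 0.0244% and 0.0111% to 0.0301%, and erythroid markers 0.328% to 1.75% and 0.311% to 3.01%. Klrb1c and Nkg7 held most of the T and NK counts, and Car2 most of the erythroid counts of mouse 3. In mouse 3, 0 counts were found in CD61High and CD61Low for 3 and 3 of the 14 monocyte group markers, 3 and 2 of the 15 B lineage markers and 5 and 3 of the 12 T and NK cell markers, while all 18 neutrophil and all 12 erythroid markers had counts. The part of mature cells in the results was not tested.

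The list of related factors, 18 family members of the 10, held 16 tested genes, of which 10 were lower and 1 higher in CD61High in all 3 mice. Over all genes 24.7% were lower and 20.6% higher, the shares against which the counts by direction of this and the next 3 lists stand. None was called in edgeR without or with the block, where 0% and 0.256% of all genes were. At an unadjusted p under 0.05 there were 0 without the block, against 6.55% of all genes. With it there were 5 lower and 1 higher, against 12.8% and 8.01% of all genes. The median log2 fold change was -0.53. Gfi1b, the relative of Gfi1 that serves the megakaryocyte and erythroid lineages, was the one higher in each mouse, opposite to Gfi1. It stood at 136, 152 and 173 CPM in CD61High of mice 1, 2 and 3 and at 87.7, 138 and 114 CPM in CD61Low, with a log2 fold change of 0.44 (SE 0.21, adjusted p = 0.758). Mef2d, unlike Mef2c, was lower in CD61High of each mouse, at -0.40 (SE 0.28, adjusted p = 0.867). Ikzf2 (-0.63, SE 0.45, adjusted p = 0.874), which encodes Helios, and Mef2a (-0.20, SE 0.15, adjusted p = 0.881) completed the 4 with the smallest p.

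Of 17 cofactors and inhibitors of the factors, 16 were tested, 5 lower and 4 higher in CD61High in all 3 mice, both near the shares over all genes, and none was called without or with the block. At an unadjusted p under 0.05 there were 3 without the block, against 6.55% of all genes. With it there were 4 lower and 2 higher, against 12.8% and 8.01% of all genes. Trib2, a pseudokinase that promotes degradation of C/EBP-alpha, had 17.3, 18.3 and 19.2 CPM in CD61High of mice 1, 2 and 3 and 49.0, 31.2 and 64.8 CPM in CD61Low. Its groups did not overlap and its log2 fold change was -1.40 (SE 0.29, adjusted p = 0.652), or -1.34 (SE 0.22, adjusted p = 0.0620) with the block. Cbfb, the partner subunit of RUNX factors, stood the other way, at 274, 237 and 329 CPM in CD61High and 199, 143 and 214 CPM in the CD61Low libraries. Each CD61High library stood above each CD61Low library, as in 8.62% of all genes and in none of the 10 factors, and its log2 fold change was 0.60 (SE 0.22, adjusted p = 0.725). Hdac2 and Hdac1, histone deacetylases of repressor complexes, were higher in CD61High at 0.45 (SE 0.17, adjusted p = 0.738) and 0.32 (SE 0.17, adjusted p = 0.793), each in 3 of 3 mice.

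Myeloid progenitor genes, among them receptors and granule enzymes, were lower in CD61High in all 3 mice for 14 of the 15 listed. None was called without the block, also at an unadjusted p under 0.05, where 6.55% of all genes lay. With the block, which called 0.256% of all genes, 1 was called as lower. Ms4a3, a marker of granulocyte and monocyte progenitors named after its values were seen, fell by 1.30 on the log2 scale (SE 0.16, adjusted p = 0.0464). The median log2 fold change of the list was -0.96, or -1.30 with the block. Csf3r, the receptor for the neutrophil growth factor G-CSF, had 138, 385 and 98.9 CPM in CD61High of mice 1, 2 and 3 and 277, 555 and 167 CPM in CD61Low (log2 fold change -0.68, SE 0.66, adjusted p = 0.926). Prtn3, which encodes proteinase 3, was at -0.73 (SE 0.56, adjusted p = 0.881), Il6ra at -1.36 (SE 0.72, adjusted p = 0.793) and Klf4, a monocyte factor, at -1.24 (SE 1.20, adjusted p = 0.926). Neutrophil markers, which share this lineage, were lower in CD61High in each mouse beside all of them.

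Lymphoid priming genes numbered 18, of which 17 were tested, with 10 lower and 2 higher in CD61High in all 3 mice and none called without or with the block. At an unadjusted p under 0.05 there were 3 without the block, against 6.55% of all genes. With it there were 9 lower and 1 higher, against 12.8% and 8.01% of all genes. The median log2 fold change was -0.67, or -1.18 with the block. Foxp1 and Foxo1, forkhead factors of early B cells, and the receptor Notch1 were lower in each mouse, with log2 fold changes of -0.50 (SE 0.14, adjusted p = 0.676), -0.66 (SE 0.24, adjusted p = 0.725) and -0.94 (SE 0.29, adjusted p = 0.676). Notch1 had 22.9, 34.8 and 17.0 CPM in CD61High of mice 1, 2 and 3 and 46.7, 54.0 and 42.5 CPM in CD61Low, with no overlap. Il12a, a subunit of interleukin 12, was higher at 0.70 (SE 0.29, adjusted p = 0.752). In mouse 3, 4 of the 18 had 0 counts in each gate, and Dntt, Rag1 and Ccr9, all 3 expressed in committed lymphoid cells and singled out after their values were seen, had none in either gate.

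**Figure D4:**
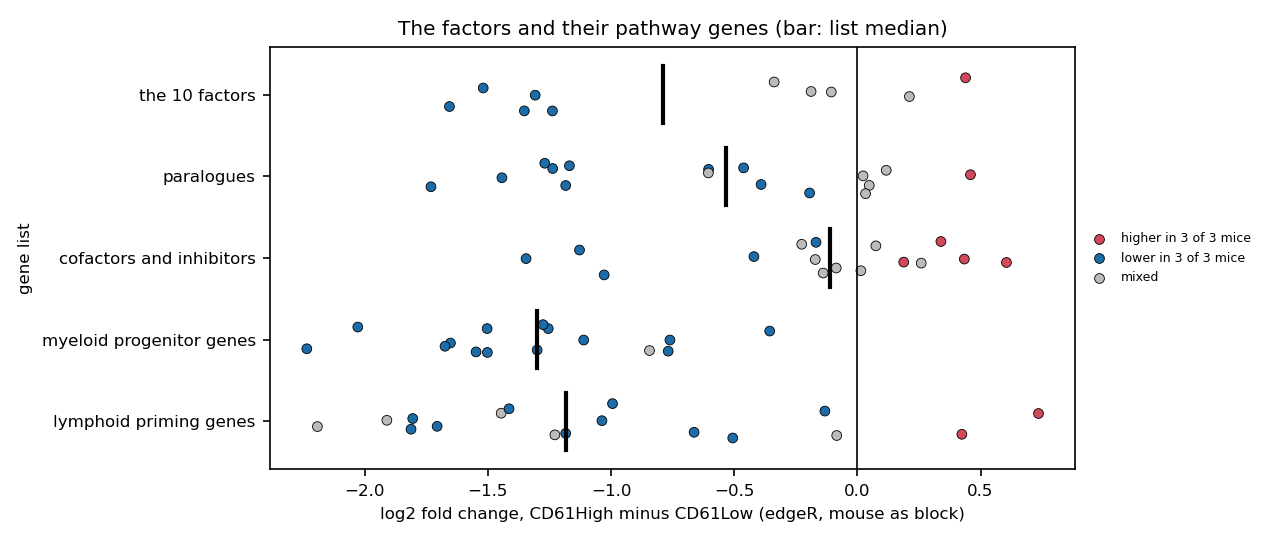
Log2 fold change, CD61High minus CD61Low, of each tested gene in the 10 factors and 4 lists of pathway genes (edgeR with the mouse as a block), coloured by the direction in the 3 mice, with a bar at each list's median. Most myeloid progenitor and lymphoid priming genes lie left of 0, with medians of -1.30 and -1.18, while cofactors and inhibitors spread to both sides with a median of -0.11.

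Among 10622 genes with a mean of at least 5 CPM, the pattern nearest to Gfi1 over the 6 libraries was that of Csf2rb2, an interleukin 3 receptor chain with a close copy in Csf2rb, so that its reads are uncertain. Likeness was the root mean square difference of log2 CPM after centring each gene, and it was 0.101 for Csf2rb2 and 0.142 for Bach2, a factor of B and T cells, followed by Pqlc3 at 0.195, while Gfi1 itself varied by 0.795 on this measure. Nearest to Cebpb were Id2, an inhibitor of E proteins, at 0.155 and the immediate-early factor Fos at 0.164, then Trps1 at 0.167, with Cebpb varying by 0.889. Irf8 was nearest to Ms4a4b (0.143), Ctss and Pla2g7 (0.211), Cebpa to Olfm1 (0.124), Lpxn and Dram1 (0.145), and Satb1 to Dok3 (0.213), Dmtn and Lpxn (0.325). Mef2c was nearest to Ncoa7 (0.035), Fam57a and Homer3 (0.084), and Spi1 to Dhrs11 (0.075) and Ostf1 (0.103). Ikzf1 was nearest to Usp25 (0.026), Ap2a2 and Mtmr6, Bcl11a to Chst14 (0.031), Pdxk and Trim14, and Tcf3 to Abcf1 (0.027), Rnmt and Smarce1. Among the 10 themselves, Bcl11a and Mef2c, whose fold changes differ in sign, were nearest at 0.322. Cebpa and Satb1 were 0.353 apart, Irf8 and Satb1 0.353 and Cebpb and Gfi1 0.376. Each of these distances was less than the genes' own variation. Ikzf1 and Tcf3 were 0.333 apart, which is more than the 0.302 and 0.168 by which they vary themselves; both levels were nearly flat. Libraries of 1 mouse share their source, so these 6 points are not independent.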

How the data were processed

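The authors deposited counts of reads per gene, not normalized, in 1 STAR output file for each library and in a joint table for the series, whose values differed from the library files in 0 cells. STAR 2.7, MultiQC and edgeR are named per the submitters' processing notes, and the build and gene models were not given in the sources used here. Per the labels' protocols, cDNA from 4 ng of total RNA (SMART-Seq v4) and 1 ng of cDNA (Nextera XT) were used. The first-strand share was 49.9% to 50.0%, so unstranded counts were taken and overlapping genes cannot be told apart. All 55450 gene identifiers are in GENCODE M21 (GRCm38). Unmapped (4.36% to 10.9%), multimapping (10.0% to 15.6%), unassigned (2.88% to 4.21%) and ambiguous reads (3.55% to 4.37%) stayed out. All 15 pairs of libraries differed beyond sampling noise (lowest chi-square per degree of freedom 40.6).

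The test was the robust, two-sided quasi-likelihood F-test of edgeR 4.0.16 (R 4.3.3) with TMM factors, filterByExpr, Benjamini-Hochberg adjustment over 15610 genes, called at an adjusted p under 0.05. Standard errors come from the F statistic, and log2 CPM carries a prior count of 2. Without the block, p-values set the difference between gates against the spread between libraries of a gate, and treat the libraries of a mouse as independent. With the block they set it against the spread left after differences between mice are taken out. Alternatives were a replicate block, DESeq2 1.42.0, limma 3.58.1 (voom), RLE, upper-quartile and no scaling factors, no filter, and leaving out libraries or mice. Libraries of a mouse number are paired by the titles; their deviations from the group means correlated at 0.236, 0.806 and 0.761, against -0.823 to 0.374 between mice. On simulated data with a spread between mice, edgeR and limma voom recovered most of the changes put in with the block and none without it. DESeq2 also recovered most with the block, and without it 92% of 4-fold but 1% of 2-fold changes. The simulated spread was smaller than that of Irf8, Cebpa or Satb1 between mice. Members and lists were chosen with earlier results of these data known. Named are all members, the 3 genes nearest to each (1 is not reported here), the 4 genes per pathway list with the smallest p, Itgb3, and markers a result turns on.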

Additional observations from a re-analysis of the deposited data

How the results depend on the processing

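Over all genes, edgeR with the replicate block called 40 genes against 0 without it, DESeq2 237 without and 1566 with the block, limma voom 333 with it, RLE factors with the block 88 and upper-quartile factors with the block 8; leaving out libraries or mice gave 0 to 742 (742 without mouse 2 with the block, 133 without it). Of the 10 factors, 5 were called by DESeq2 with the block, 3 by limma voom with the block and 1 by RLE factors with the block, and 0 to 4 when libraries or mice were left out (4 without mouse 2 with the block). With TMM factors and all 6 libraries, the paired fit in edgeR changed no call of the 10.

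Gfi1, Cebpb, Bcl11a, Tcf3 and Mef2c kept their sign under all 24 alternatives. The unpaired fit without CD61Low of mouse 2 leaves that mouse in CD61High only, and turned Cebpa to 0.34, Spi1 to 0.72, Irf8 to 0.51, Satb1 to 0.033 and Ikzf1 to 0.13; Ikzf1 was 0.04 without CD61High of mouse 1. Their lowest values, all without CD61High of mouse 2, were -3.08, -1.46, -3.50, -3.22 and -0.34. The counts of factors with 1 direction in every mouse were rechecked after seeing the data. Lower ones numbered 5 to 6 across scalings (18.1% to 26.0% of all genes) and 5 to 7 without single mice (32.8% to 35.8%). Higher ones numbered 2 with upper-quartile factors or library sizes alone, where Tcf3 joined Mef2c, and 1 to 2 without single mice (19.2% to 27.8% and 26.5% to 34.8% of all genes). Cebpa in mouse 3, at 16 and 37 counts, is limited by depth.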

Other observations

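In mouse 3, whose libraries had the lowest neutrophil marker shares, 3 granule enzymes of myeloid progenitors, Mpo, Elane and Ctsg, differed more between the gates than any of the 10 factors did. These genes were singled out after their values were seen, and each ratio rests on 1 library per gate. Mpo, which encodes myeloperoxidase, had 11 counts in CD61High and 1019 in CD61Low, Elane, which encodes neutrophil elastase, 8 and 650, and Ctsg, which encodes cathepsin G, 0 and 56. In the same libraries Satb1 had 27 and 128 counts, Cebpb 1516 and 5189, Irf8 94 and 316, Gfi1 385 and 1156, Cebpa 16 and 37 and Spi1 2164 and 1902. Prtn3, whose product is stored in the same granules, had 4240 and 9341 counts, a smaller difference than that of Satb1, Cebpb, Irf8 or Gfi1. Others of the myeloid progenitor list differed little or went the other way, such as Il6ra (212 and 293 counts), Csf2ra (552 and 616) and Plac8 (253 and 215). The neutrophil markers S100a8 and Ngp had 1568 and 9404, and 1008 and 8167 counts there. In mice 1 and 2 the 3 enzymes differed less between the gates than Satb1 did. Mouse 1 had 3636 and 13881 counts for Mpo, 2742 and 7898 for Elane, 390 and 1429 for Ctsg and 108 and 483 for Satb1. Mouse 2 had 48630 and 58269 for Mpo, 32338 and 45105 for Elane, 4927 and 7983 for Ctsg and 658 and 1137 for Satb1. The part of mature cells in these values was not tested.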
